A study of Mus musculus with 12 samples.

Results

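The Ifit genes encode the interferon-induced proteins with tetratricopeptide repeats. They were taken as every probe set whose gene symbol begins with Ifit followed by a digit, which leaves out the unrelated Ifitm membrane proteins. The rule found 5 genes of 19937 tested, each with a single probe set: Ifit1, Ifit2, Ifit3, Ifit3b and Ifit1bl2. A further gene of the cluster, Ifit1bl1, was not analysed here. RNA came from primary macrophages that had been grown from C57BL/6 mouse bone marrow in medium conditioned by L929 cells, and used on day 7. There were 4 groups of 3 arrays. Hdac3 +/- cells, which carry a single intact allele and are labelled wild type, and Hdac3 -/- cells were each left untreated or stimulated with 100 ng/ml of LPS for 4 h. LPS is a component of the bacterial outer membrane, and Hdac3 encodes a class I histone deacetylase of the NCoR and SMRT corepressor complexes. The labels say neither how the alleles were deleted nor whether replicates came from separate animals. Array sex, given below, shows that the +/- replicates did not all come from a single animal. It cannot tell this for the -/- replicates. The p-values cover the spread between arrays alone, which may be technical, partly in +/- cells and wholly in -/- cells.

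Ifit proteins are cytosolic antiviral proteins. Ifit1 binds viral RNA whose cap lacks ribose methylation and blocks its translation, and family members can form complexes with one another. In macrophages LPS acts on the receptor TLR4, whose adaptor TRIF leads through the kinase TBK1 to IRF3 and to interferon beta. Interferon beta then acts through the receptor chains IFNAR1 and IFNAR2, the kinases JAK1 and TYK2 and factors that include STAT2 and IRF9, which bind a DNA element called the ISRE. Ifit genes are textbook targets of IRF3 and of this interferon-driven factor.

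The genotype labels were checked on Hdac3 itself. The +/- arrays gave a log2 signal of 9.42, 9.10 and 8.98 before and 8.90, 9.02 and 8.66 after LPS. In -/- arrays it was 7.39, 7.52 and 7.39 untreated and 6.91, 7.25 and 7.18 after LPS, so no -/- array reached any +/- array. The difference was -1.74 ± 0.153 untreated (log2, ± SE of the fit, adjusted p = 1.66e-05) and -1.75 ± 0.153 after LPS (adjusted p = 5.91e-06). Whether its probes lie inside or outside the removed sequence is unknown here, so this checks the labels only through the level of the transcript. The 9 measured macrophage markers of 10 listed summed to a linear signal of 33200 to 37900 in every array. Replicate 1 of both +/- groups was male and the other 10 arrays female; with sex as a covariate every Ifit call was kept.

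The 5 genes lie together on chromosome 19. The promoter windows of Ifit3, Ifit3b and Ifit1 are shown because each holds a pair of ISRE-like matches. The windows run from 250 bases before to 50 bases after the start (RefSeq, build GRCm38.p6) and are written 5′ to 3′ on the plus strand, which is the strand of these 3 genes. Capitals mark matches, on either strand, to an ISRE core of GAAA, any 2 bases and GAAA. Ifit3 is at chr19:34583279-34583578, Ifit3b at chr19:34607707-34608006 and Ifit1 at chr19:34640639-34640938.
Ifit3: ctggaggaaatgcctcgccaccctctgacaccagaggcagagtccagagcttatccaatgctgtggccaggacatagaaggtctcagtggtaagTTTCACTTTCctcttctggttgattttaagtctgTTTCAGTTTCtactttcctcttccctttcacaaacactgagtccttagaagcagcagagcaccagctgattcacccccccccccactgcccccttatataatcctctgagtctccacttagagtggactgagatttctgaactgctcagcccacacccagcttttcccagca
Ifit3b: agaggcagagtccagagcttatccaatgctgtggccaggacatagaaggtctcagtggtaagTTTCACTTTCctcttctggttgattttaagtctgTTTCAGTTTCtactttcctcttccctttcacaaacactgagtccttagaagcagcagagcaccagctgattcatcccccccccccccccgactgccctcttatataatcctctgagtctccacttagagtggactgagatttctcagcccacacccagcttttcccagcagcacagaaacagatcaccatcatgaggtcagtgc
Ifit1: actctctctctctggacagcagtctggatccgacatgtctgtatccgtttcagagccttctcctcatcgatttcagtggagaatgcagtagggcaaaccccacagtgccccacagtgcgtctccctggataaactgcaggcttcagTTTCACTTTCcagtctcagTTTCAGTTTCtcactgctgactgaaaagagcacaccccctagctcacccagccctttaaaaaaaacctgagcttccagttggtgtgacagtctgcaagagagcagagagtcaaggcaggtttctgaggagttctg
All 3 windows hold the same pair of letters, TTTCACTTTC followed by TTTCAGTTTC. Their starts are 34 bases apart in Ifit3 and Ifit3b and 19 bases apart in Ifit1. The Ifit3 and Ifit3b windows are identical at 258 of 340 aligned columns, or 75.9%. The pair begins at base 95 of the Ifit3 window and at base 63 of the Ifit3b window, so the windows are offset. Columns that hold a base of only a single window count as not identical. The 75.9% therefore understates the likeness of the bases that align with each other. Of 2 Ifit1bl2 windows, both on the minus strand, 1 shares 245 bases with that of Ifit1 and so holds the same pair, and the other holds no such match. Both Ifit2 windows hold no such match; the first holds 1 match to TTCNNNGAA (the letters of a GAS element) that overlaps 1 match to an NF-kB-like motif (GGGA, any 4 bases and CC). Over all 32851 promoter windows, 3.44% hold the ISRE letters at least once and 0.225% hold them at least 2 times, with 8.3% for TTCNNNGAA and 20.7% for the NF-kB-like motif, both strands searched.

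LPS raised all 5 Ifit genes in +/- macrophages. In Ifit1 the log2 signal was 8.43, 8.57 and 7.83 untreated and 12.61, 12.78 and 12.87 after LPS. Ifit2 gave 9.36, 9.79 and 8.56 untreated and 12.82, 12.68 and 12.80 after LPS. Ifit3 gave 8.48, 8.45 and 7.64 untreated and 11.72, 11.99 and 11.71 after LPS. In these 3 genes +/- untreated replicate 3 was the lowest of its group, and no treated array overlapped an untreated one, as was so for 36.7% of all genes. Ifit3b, a close paralog of Ifit3, gave 5.66, 5.32 and 5.63 untreated and 9.73, 10.01 and 9.71 after LPS. Ifit1bl2 was dim, with 3.16, 3.08 and 2.75 untreated and 4.68, 5.14 and 4.86 after LPS. Its untreated values lay below the lower quartile of all probe sets, which was between 3.70 and 3.99 over the arrays. Because Ifit3 and Ifit3b are close paralogs, signal of one could reach the probes of the other, and their values are uncertain to that extent.

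The rise in +/- cells was 4.48 ± 0.258 for Ifit1 (22.3-fold, adjusted p = 6.44e-08) and 4.28 ± 0.269 for Ifit3b (19.4-fold, adjusted p = 1.52e-07). Ifit3 rose by 3.61 ± 0.332 (12.2-fold, adjusted p = 4.37e-06) and Ifit2 by 3.53 ± 0.277 (11.6-fold, adjusted p = 1.03e-06). Ifit1bl2 rose least, by 1.90 ± 0.202 (3.73-fold, adjusted p = 1.57e-05). Thus 5 of 5 members were higher, against 9.6% of all genes called higher (25.1% in either direction), and the members' median difference was 3.61 against 0.0839 over all genes. Adjusted p-values are from limma with the Benjamini-Hochberg method over all 19937 genes, and a gene is called below 0.05.

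**Figure D1:**
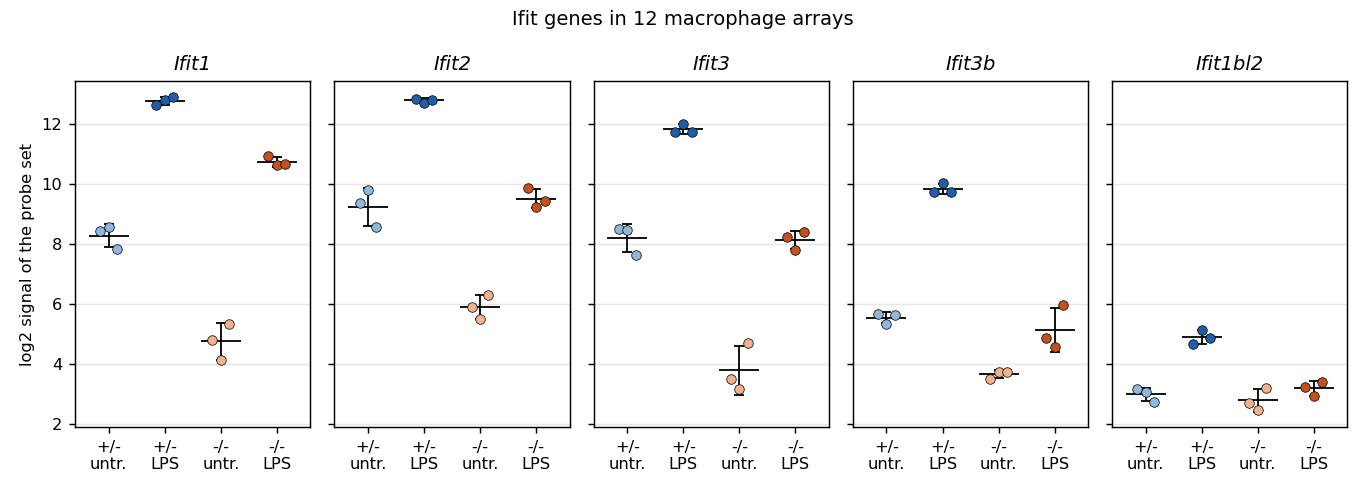
Log2 signal of each Ifit gene in every array (points), by genotype and treatment, with the mean and SD of 3 arrays (bars). The -/- arrays of Ifit1, Ifit2, Ifit3 and Ifit3b lie below the +/- arrays of the same treatment, and Ifit1bl2 separates by genotype after LPS only.

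In untreated Hdac3 -/- macrophages 4 of the 5 genes were lower. Ifit1 gave 4.80, 4.13 and 5.34, Ifit2 5.90, 5.49 and 6.29, and Ifit3 3.49, 3.16 and 4.71. Here replicate 3 was the highest of its group for each of the 3 genes, the reverse of its place among the +/- arrays, yet every -/- array stayed below every +/- array. Ifit3b gave 3.52, 3.73 and 3.75, also without overlap. Ifit3 was lower by 21.2-fold (log2 -4.40 ± 0.332, adjusted p = 3.84e-06), Ifit1 by 11.5-fold (-3.52 ± 0.258, adjusted p = 3.03e-06), Ifit2 by 10.1-fold (-3.34 ± 0.277, adjusted p = 9.62e-06) and Ifit3b by 3.66-fold (-1.87 ± 0.269, adjusted p = 0.0014). In these -/- cells 2 of 3 Ifit3 arrays and 3 of 3 Ifit3b arrays lay below the lower quartile of their own array, so the size of both falls may be capped by the low end of the scale. Ranked by size among the falls of all 19937 genes, Ifit1 stood at 11 and Ifit2 at 14. Ifit1bl2, at 2.69, 2.48 and 3.21, overlapped the +/- arrays, and its difference was -0.20 (95% interval -0.64 to 0.23, adjusted p = 0.799). The share of all genes called lower was 1.44%, and 18.0% of genes had groups that did not overlap. The members' median was -3.34, against 0.0114 over all genes.

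After LPS all 5 genes were lower in -/- than in +/- cells. Ifit1 reached 10.91, 10.62 and 10.65, Ifit2 9.87, 9.22 and 9.43, and Ifit3 8.23, 7.81 and 8.38. Ifit3b reached 4.88, 4.57 and 5.98, and Ifit1bl2 3.23, 2.93 and 3.41. None of these values overlapped the +/- arrays given LPS, which was so for 31.8% of all genes. The largest difference among the members was that of Ifit3b, at 25.5-fold (-4.67 ± 0.269, adjusted p = 2.17e-07), ranked 4 among the falls of all genes. Ifit3 was 12.7-fold lower (-3.67 ± 0.332, adjusted p = 7.87e-06), Ifit2 9.58-fold (-3.26 ± 0.277, adjusted p = 4.89e-06), Ifit1 4.09-fold (-2.03 ± 0.258, adjusted p = 0.000144) and Ifit1bl2 3.25-fold (-1.70 ± 0.202, adjusted p = 8.44e-05). The background was 5.99% of genes called lower, and the medians were -3.26 over the members and -0.0377 over all genes. Fewer cells carrying a transcript and less of it per cell cannot be told apart in these bulk samples.

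Within -/- cells LPS still raised 4 of the 5 genes. Ifit1 rose by 5.97 ± 0.258 (62.6-fold, adjusted p = 8.14e-09), ranked 5 among the rises of all genes. Ifit3 rose by 4.35 ± 0.332 (20.4-fold, adjusted p = 1.9e-06), Ifit2 by 3.61 ± 0.277 (12.2-fold, adjusted p = 1.99e-06) and Ifit3b by 1.48 ± 0.269 (2.79-fold, adjusted p = 0.00298). Ifit1bl2 differed by 0.40 (95% interval -0.04 to 0.83, adjusted p = 0.307). The groups of the 4 called genes did not overlap, as was so for 28.3% of all genes, and 3.69% of genes were called higher (8.87% in either direction).

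The LPS response was therefore compared between the genotypes gene by gene, as the interaction of genotype and LPS (the -/- response minus the +/- response). Ifit3b responded less in -/- cells, by -2.80 ± 0.38 (adjusted p = 0.00249), and Ifit1bl2 by -1.50 ± 0.286 (adjusted p = 0.023). Both are limited by dim signals: Ifit3b lay below the lower quartile in 3 of 3 untreated -/- arrays, and Ifit1bl2 in every array except those of +/- cells given LPS, so the -/- responses may be understated. These 2 of 5 members stand beside 0.777% of genes called lower, 0.306% higher and 1.08% in either direction. The Ifit1bl2 call was lost without +/- untreated replicate 3 (adjusted p = 0.0564), +/- LPS replicate 3 (0.0571), -/- untreated replicate 1 (0.0557), -/- LPS replicate 1 (0.0614) or -/- LPS replicate 2 (0.0511), at differences of -1.55 to -1.37. Ifit1 had the opposite sign, 1.49 ± 0.365, and was not called (adjusted p = 0.072). With replicate number as a block within genotype it was called (1.49 ± 0.321, adjusted p = 0.0457), as it was without +/- untreated replicate 3 (1.71, adjusted p = 0.0484) or -/- untreated replicate 3 (1.78, adjusted p = 0.0229). For Ifit2 the interaction was 0.08 (95% interval -0.76 to 0.93, adjusted p = 0.957) and for Ifit3 0.74 (-0.27 to 1.75, adjusted p = 0.604).

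**Figure D2:**
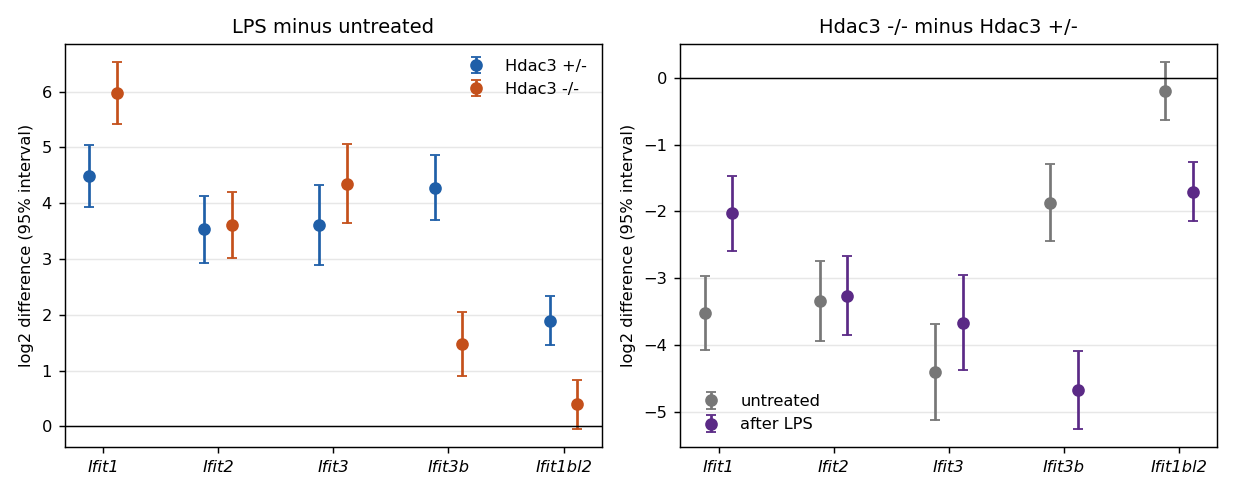
Log2 differences with 95% intervals for the 5 Ifit genes: LPS minus untreated in each genotype (left) and Hdac3 -/- minus +/- in each treatment (right). The response of Ifit3b was 4.28 in +/- and 1.48 in -/- cells, while that of Ifit2 was 3.53 and 3.61.

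Ordered by level within each gene, Ifit1 was highest in +/- cells given LPS, followed by -/- cells given LPS, untreated +/- and untreated -/- cells, and all neighbours in this order differed. In -/- cells given LPS, Ifit1 stood 5.47-fold above untreated +/- cells (2.45 ± 0.258, adjusted p = 2.71e-05), where 6.51% of all genes were called higher (15.5% in either direction) and 30.3% had groups that did not overlap. For Ifit2, Ifit3 and Ifit3b those middle groups overlapped. The difference was 0.27 (95% interval -0.33 to 0.87) for Ifit2, -0.05 (-0.77 to 0.66) for Ifit3 and -0.39 (-0.97 to 0.19) for Ifit3b. Without -/- LPS replicate 3, the highest Ifit3b array of its group, that last difference was -0.81 (adjusted p = 0.00739). Ifit1bl2 was highest in +/- cells given LPS, and its other 3 groups did not differ beyond their spread. This contrast of LPS-treated -/- with untreated +/- cells was added after the data were seen.

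The members were also set against each other within each array, which removes a constant affinity of each probe set. It does not remove the compression of dim signals. This limits pairs with Ifit1bl2 and with Ifit3b, which lay below the lower quartile in 3 of 3 untreated -/- arrays. An exact two-sided permutation test within strata of genotype or treatment was run on 10 pairs for each of the LPS response and the genotype difference, adjusted over 20 tests, with 0.005 the smallest p the 400 permutations allow. The LPS response differed in 7 of 10 pairs and the genotype difference in 6 of 10. All 4 pairs with the dim Ifit1bl2 were among them in both; without these, 3 of 6 and 2 of 6 pairs differed. Averaged over both genotypes, the response of Ifit1 exceeded that of each other member. Ifit2 minus Ifit1 was -1.65 and Ifit3 minus Ifit1 -1.24 (both adjusted exact p = 0.01), and Ifit3b minus Ifit1 was -2.35 (-0.20 in +/- and -4.49 in -/- cells, adjusted exact p = 0.0462). Ifit2 and Ifit3 differed by -0.41 in the response (adjusted exact p = 0.147). Averaged over both treatments, the genotype difference of Ifit3 was more negative than that of Ifit1 by -1.26 (adjusted exact p = 0.01), and Ifit2 minus Ifit3 was 0.73 (adjusted exact p = 0.025). For Ifit3b the averages hid opposite values against more than 1 member. Ifit2 minus Ifit3b in the LPS response was -0.75 in +/- and 2.13 in -/- cells, and in the genotype difference -1.47 untreated and 1.41 after LPS. Ifit3b minus Ifit1 in the genotype difference was 1.65 untreated and -2.64 after LPS. Ifit3 minus Ifit3b in the LPS response was -0.67 in +/- and 2.87 in -/- cells (mean 1.10, adjusted exact p = 0.15). In the genotype difference it was -2.53 untreated and 1.01 after LPS (mean -0.76, adjusted exact p = 0.294). The pair shares its ISRE-like letters at equal spacing, as the printed windows show.

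Of 13 listed type I interferon ligands 11 were measured, with log2 signals from 1.85 to 6.83. In every comparison limma called 0 of them, against 1.08% to 25.1% of all genes called in either direction. Unadjusted p under 0.05 was reached by 0 in the +/- and 2 in the -/- LPS response. It was reached by 2 untreated and 0 after LPS between genotypes, and by 1 in the interaction. Ifnb1, which encodes interferon beta, gave 3.99, 4.08 and 3.48 in resting and 4.22, 3.91 and 3.71 in LPS-exposed +/- arrays. In -/- arrays it gave 3.70, 4.25 and 3.75 untreated and 3.62, 4.23 and 3.71 after LPS. These values overlap in every group and lie close to the lower quartile of all probe sets, so no change of Ifnb1 was detectable in either direction. Of the 4 receptor chains and kinases none was called untreated (0 at unadjusted p under 0.05), where 2.66% of all genes were called. After LPS Tyk2 (-0.77, adjusted p = 0.0108) and Jak1 (-0.45, adjusted p = 0.0457) were lower in -/- cells. The share of all genes called there was 5.99% lower and 15.7% in either direction.

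Among 8 transcription factors of the pathway, 4 were lower in untreated -/- cells, against the background of 2.66% called in either direction. Irf7, which drives interferon genes, fell by 3.00 (adjusted p = 2.14e-06) from 8.93, 9.20 and 8.87 to between 5.4 and 6.33. Stat2 fell by 1.80 (adjusted p = 0.000141), from 9.36, 9.99 and 9.37 to 7.83, 7.61 and 7.88. Irf9, its DNA-binding partner, fell by 0.97 (adjusted p = 0.00404) and Irf1 by 0.92 (adjusted p = 0.031). No -/- array of Irf7 or Stat2 reached a +/- array. After LPS the difference of Irf7 was -1.83, of Stat2 -1.60, of Irf1 -1.33 and of Irf2 -1.12, all called lower, while Irf3 was higher by 0.84 (background 9.69% higher) and Irf9 differed by -0.09 (adjusted p = 0.76). The background there was 15.7% in either direction. Of 5 inhibitors, Usp18, which removes ISG15 and restrains the interferon receptor, was lower untreated (-3.54, adjusted p = 1.31e-06) and after LPS (-2.27), and Socs1 was lower after LPS (from a log2 mean of 8.81 to 7.81, adjusted p = 0.0026). Of 7 genes measured in the relay from TLR4 to interferon, 0 were called untreated by limma (1 at unadjusted p under 0.05), and Tbk1 (-0.66), Ly96 (-0.63) and Tlr4 (-0.54) were lower after LPS.

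Of 33 other antiviral interferon-stimulated genes listed, 29 were measured. This list, like the others here, was written with earlier results of these data known, so its counts are no independent comparison. In untreated -/- cells 26 of the 29 were lower (median -2.34, against 0.0114 and 1.44% called lower over all genes). After LPS 26 were lower (median -1.64, against -0.0377 and 5.99%). The falls of Rtp4 (-5.60), Oasl2 (-3.80), Samd9l (-3.79) and Ifi27l2a (-3.49) were the largest of the list untreated. LPS raised 27 of the 29 in +/- cells (median 1.7, against 0.0839 and 9.6% called higher over all genes) and 27 in -/- cells (median 2.17, against 0.0209 and 3.69%). In the interaction, where 0.306% of all genes were called higher and 0.777% lower, 4 were called higher, Rtp4 (3.49), Oasl2 (2.05), Samd9l (1.64) and Xaf1 (0.87), and Isg20, an RNA exonuclease, was lower (-2.36). The Ifit family had 0 called higher and 2 lower. The 12 NF-kB primary response genes, the direct targets of LPS signalling, rose in both genotypes (medians 2.47 and 2.04). In the interaction 1 of the 12 was called lower and 0 higher, with differences from -1.29 to 0.747. Between genotypes untreated, Tnfaip3 was higher (1.33, adjusted p = 0.00198, background 1.22% higher) and the other 11 were not called; after LPS Nfkbiz alone of the 12 was lower (-0.95).

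**Figure D3:**
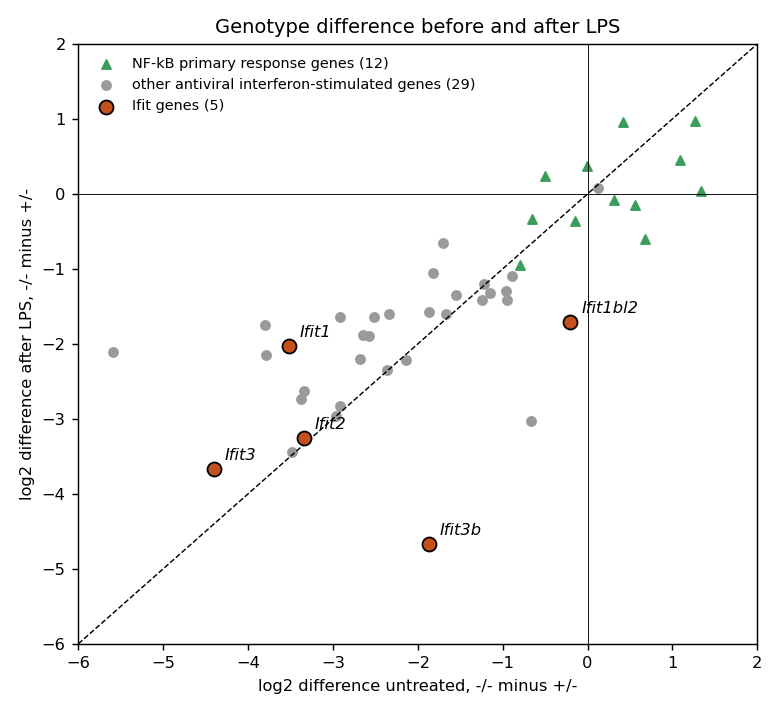
Log2 difference between Hdac3 -/- and +/- cells untreated (x axis) and after LPS (y axis) for the 5 Ifit genes, 29 other antiviral genes and 12 NF-kB primary response genes, with the line of equal difference dashed. Ifit1 lies above the line, at -3.52 and -2.03, and Ifit3b below it, at -1.87 and -4.67.

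The genes with the profile most like the mean of the family were found over all 12 arrays, as the root mean square of the log2 differences after each gene was centred on its own mean. They were Gm12250 (0.381), Slfn4 (0.491), Gbp3 (0.527), Usp18 (0.548), Ifi209 (0.549), Irf7 (0.555), Ddx60 (0.57), Slfn5 (0.604), Gbp7 (0.646) and Zbp1 (0.652). Of the members, Ifit2 was closest to that mean (0.337), and Ifit1bl2 farthest (1.49). Of the 10 genes 8 had promoter windows, and 5 of these held the ISRE letters. Each member also had its own nearest gene: Rsad2 (viperin, 0.314) for Ifit1, Ifi209 (0.363) for Ifit2, Ifit2 (0.525) for Ifit3, Tnfsf10 (TRAIL, 0.375) for Ifit3b and Mafk (0.231) for Ifit1bl2. Ifit3 was the only one whose nearest gene was itself a member, and the paralogs Ifit3 and Ifit3b were 1.2 apart. Of the listed genes with promoter windows, the ISRE letters were held by 11 of 23 antiviral genes, 9 of 13 interferon ligands, 2 of 8 transcription factors and 1 of 4 inhibitors. They were held by 0 of 10 NF-kB primary genes, 0 of 4 receptors and kinases and 0 of 4 relay genes. Over all windows the share was 3.44%, so counts of 0 in such short lists are near it. That share is per window, while these counts are per gene, and a gene can have several windows.

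The cluster was compared with the 5 nearest measured protein-coding genes on either side. In untreated -/- cells 1 of 10 neighbours was called, Ch25h, which encodes cholesterol 25-hydroxylase (-3.13 ± 0.693, adjusted p = 0.0256), against 2.66% of all genes. Its +/- arrays spread widely, at 9.19, 6.61 and 6.39, against 3.71, 5.67 and 3.42 in -/- arrays. After LPS 4 of 10 were called, against 15.7% of all genes. Ch25h (-2.99, adjusted p = 0.0101) and the death receptor gene Fas (-1.13, adjusted p = 0.0489) were lower. Pank1, a pantothenate kinase (1.04, adjusted p = 0.00189), and Lipa, the lysosomal acid lipase (0.51, adjusted p = 0.0277), were higher. The nearest of these genes, Lipa on one side and Slc16a12 on the other, were not called lower in either treatment. Slc16a12 was dim, with group means of 3.245 to 3.442, below the lower quartile of all probe sets. A fall of Slc16a12 could therefore hardly have been seen, and its values do not show where the genotype difference ends. None of the 10 neighbours had the ISRE letters in its promoter windows, against 3.44% of all windows. In the interaction 0 were called by limma, against 1.08% of all genes. Both counts are near these shares and set the neighbours apart from no other genes.

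**Figure D4:**
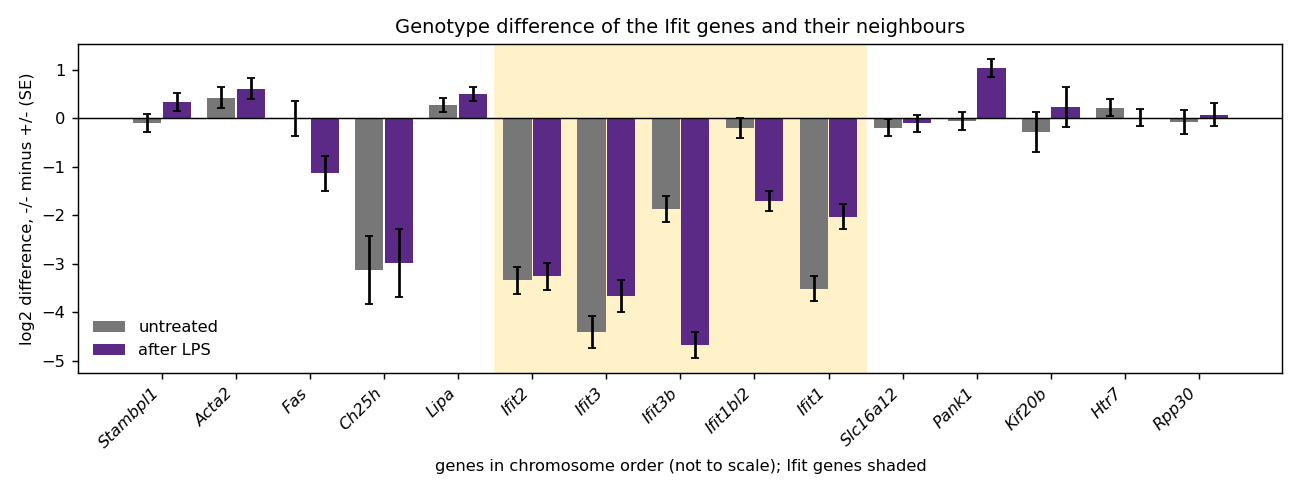
Log2 difference between Hdac3 -/- and +/- cells (bars, ± SE) for the Ifit genes (shaded) and their 10 measured neighbours, in chromosome order and not to scale. Ch25h is the only neighbour with falls near the size of the Ifit genes, at -3.13 untreated and -2.99 after LPS.

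Markers of other cell types were examined beside these results. The summed linear signal of the 6 measured markers of plasmacytoid dendritic cells, which make much interferon, was 481 to 742 in untreated and 727 to 947 in LPS-treated +/- arrays. It was 320 to 381 and 348 to 497 in the corresponding -/- arrays. Of the 6, Tcf4 was called lower in -/- cells (-0.99 untreated and -1.32 after LPS). The others, among them the defining markers Siglech and Ccr9, were not called between genotypes. Tcf4 had log2 signals of 7.72 to 9.64, against 3.04 to 5.43 for the others, so the sums mostly follow Tcf4. Siglech lay between 4.13 and 4.41 in untreated +/- arrays and between 4.18 and 4.45 in untreated -/- arrays. Summed neutrophil markers ranged from 220 to 287 untreated and from 233 to 953 after LPS in +/- arrays. In -/- arrays the sums ranged from 212 to 721 and from 553 to 1970. Between genotypes 0 of 8 neutrophil markers were called. Over all genes 2.66% were called untreated and 15.7% after LPS. A count of 0 in so short a list is near these shares and does not show that the neutrophil content was equal. Of the macrophage markers Fcgr1 was lower in -/- cells, by -1.45 untreated and -2.41 after LPS. Markers of conventional dendritic, T, B, NK, stromal and erythroid cells were also listed. Among these, the B cell marker Cd79b was lower in untreated -/- cells (-0.60, adjusted p = 0.0359). After LPS the dendritic cell marker Xcr1 (-0.70, adjusted p = 0.0132) and the stromal marker Dcn (-0.71, adjusted p = 0.00684) were lower. The part of these markers in the Ifit differences was not tested.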

How the data were processed

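The authors deposited log2 signals, made by RMA in affy according to the submitters' processing notes, with versions, chip description file and build not given in the sources used here. RMA places arrays on a common distribution and compresses dim signals. Of 28193 probe sets on 12 arrays, 21640 had 1 gene symbol, 1321 several and 5232 none; the probe set with the highest mean stood for a gene, giving 19937 genes. limma 3.58.1 in R 4.3.3 fitted 4 group means (lmFit, eBayes), with Benjamini-Hochberg adjustment over all genes and a threshold of 0.05. Python 3.11.15, pandas 2.3.3, numpy 2.4.6, Biopython 1.88 and matplotlib 3.10.9 were used for tables, sequences and figures. The fit was tested on simulated data. The number of arrays limits the precision.

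Deviations of same-numbered untreated and LPS arrays correlated at 0.243, 0.327 and 0.223 in +/- cells and at 0.0898, 0.195 and -0.122 in -/- cells. Same-numbered arrays of different genotypes correlated at -0.472 to 0.155. The numbers may thus pair the +/- arrays, which was not tested. The reported fit and the permutations did not use such pairs. Named were the members, Hdac3, the 10 genes of most similar profile, 5 neighbours on each side and members of written lists; each member's nearest gene was named after its value was seen. Members and lists were chosen with earlier results of these data known. Alternatives were other normalizations, a filter on dim genes, array weights, a trend, sex, blocks and leaving out each array.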

Additional observations from a re-analysis of the deposited data

Results flagged for a closer look

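The LPS response of Ifit3b differed between the genotypes by the interaction test, at -2.80 (log2, -/- minus +/-). Ifit3b lay below the lower quartile in 3 of 3 untreated -/- arrays, so its -/- response may be understated. The LPS response of Ifit1bl2 differed by -1.50 in the same test, in a probe set that was dim in all groups except +/- cells given LPS.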

How the results depend on the processing

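Of 724 values of single members under alternatives, 704 kept their direction and side of the threshold, 5 lost a call, 6 gained one and 9 changed sign. The changes of sign concerned values that were not called. They were the Ifit2 interaction, -0.0386 with cyclic loess and -0.198 to 0.421 when single arrays were left out, and, in the contrast of LPS-treated -/- with untreated +/- cells, Ifit3 (0.0209 with quantile normalization, -0.327 to 0.113 without single arrays) and Ifit2 (-0.0687 to 0.550 without single arrays). With array weights the Ifit1 interaction (adjusted p = 0.0248) and the Ifit1bl2 response in -/- cells (0.46, adjusted p = 0.0378) were called by limma. The replicate block within genotype called the Ifit1 interaction (1.49, adjusted p = 0.0457) and changed no other call of a member. Ifit1bl2 was removed by the filter on dim genes, which left 1 member called in the interaction; leaving out single arrays gave 1 to 3, and 1 to 2 in the added contrast. Counts over all genes moved more. With array weights they were 4423 for the -/- LPS response (1769 in the fit reported), 1186 for genotype untreated (531) and 592 for the interaction (216); with only the compared groups in the fit, genotype untreated gave 321. Leaving out single arrays gave 1129 to 1941, 266 to 606 and 97 to 349 for these, and 1685 to 3495 for genotype after LPS (3127). The cause was not tested. Pair counts were 6 to 7 and 5 to 6. Dim signals limit Ifit1bl2, Ifit3 and Ifit3b in untreated -/- cells, and Ifnb1.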

Other observations

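Responses were also compared on the linear scale, which was added after the data were seen. The order of the mean responses of the genotypes differs from that on the log2 scale for Ifit1, Ifit2 and Ifit3. It is the same for Ifit3b and Ifit1bl2. On the log2 scale the interaction was not called for Ifit1, Ifit2 or Ifit3 (limma adjusted p = 0.072, 0.957 and 0.604). Their log2 order is therefore not established. The mean linear signal of Ifit1 rose by 6620 units in +/- and by 1670 in -/- cells, a ratio of 3.96, although its log2 response was 4.48 and 5.97. The rise of Ifit2 was 6340 and 680 units (ratio 9.32), that of Ifit3 3290 and 270.0 (ratio 12.2), that of Ifit3b 860 and 26 (ratio 33.0) and that of Ifit1bl2 21.9 and 2.12 (ratio 10.4). The linear rise was thus larger in +/- cells for all 5 members. These are values without a test.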
